A study of Homo sapiens with 6 samples.

Results

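GADD45A, GADD45B and CDKN2B, 3 growth arrest genes, were followed in ES2 cells, a human ovarian cancer cell line, with and without an antisense oligonucleotide against the long non-coding RNA RUNX1-IT1. The 3 genes were taken by their symbols from tables of 1113 entries, 771 of them with a symbol and 342 without, and each was present in all 6 libraries. ES2 cells given the antisense oligonucleotide (ASO) against RUNX1-IT1, labelled as RUNX1-IT1 knockdown, gave 3 libraries, and ES2 cells given a control ASO gave the other 3. ASOs are short synthetic strands that base-pair with a chosen RNA and commonly lead to its cleavage. Wherever 3 values of a group are given, they are in the order of replicates 1, 2 and 3. Both groups came from the same line, grown in the same serum-containing medium, and the labels give no ASO sequence, dose or time. The libraries were mRNA-focused, and expression was given in CPM, in which each gene's reads are scaled to the size of its library but not to the length of the gene. The labels number the replicates and do not say whether they were separate cultures, so p-values reflect the spread among these libraries alone, part or all of which may be technical.

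GADD45A and GADD45B belong to a small family of acidic nuclear proteins that are induced by DNA damage and other stress. They hold no enzyme activity of their own and act by binding partners, among them the kinase MAP3K4 upstream of p38 and JNK, the proliferation factor PCNA and the mitotic CDK1 and cyclin B pair. GADD45A is a classical target of p53, and GADD45B is better known as a target of NF-kB and of TGF-beta. CDKN2B encodes p15INK4b, an inhibitor that binds the cyclin D partners CDK4 and CDK6 and so keeps the retinoblastoma protein active, and it is known in epithelial cells as a gene induced by TGF-beta.

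In GENCODE release 29 on GRCh38, GADD45A (ENSG00000116717.12) lies on the plus strand at chr1:67685061-67688338, GADD45B (ENSG00000099860.8) on the plus strand at chr19:2476122-2478259, and CDKN2B (ENSG00000147883.10) on the minus strand at chr9:22002903-22009363. The 3 genes are therefore on different chromosomes. Of the 3, 2 matched the RefSeq promoter table (GRCh38.p14), GADD45B and CDKN2B, and the 250 bases before their starts are shown. The 2 were taken because they had an entry there, not by the size of their fall. The windows are chr19:2475877-2476126 on the plus strand for GADD45B and chr9:22009306-22009555 on the minus strand for CDKN2B. They end at the RefSeq starts, which differ from the GENCODE ones, so both windows run into the GENCODE gene spans given above. Capitals mark matches, on either strand, to the E-box CACGTG, the CCAAT box CCAAT, the TATA box TATAAA, the GC box GGGCGG and the core CRE sequence TGACG.
GADD45B: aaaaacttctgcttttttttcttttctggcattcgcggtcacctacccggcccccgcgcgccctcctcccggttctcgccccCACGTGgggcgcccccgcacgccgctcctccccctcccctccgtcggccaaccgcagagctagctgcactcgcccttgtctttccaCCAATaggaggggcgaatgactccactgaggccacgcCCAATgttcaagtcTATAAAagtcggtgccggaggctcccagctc
CDKN2B: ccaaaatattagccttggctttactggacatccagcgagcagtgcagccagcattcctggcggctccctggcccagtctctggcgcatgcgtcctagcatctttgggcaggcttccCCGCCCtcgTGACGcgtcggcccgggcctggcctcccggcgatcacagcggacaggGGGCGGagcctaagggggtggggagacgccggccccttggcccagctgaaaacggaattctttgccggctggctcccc
The GADD45B window held 1 E-box, 2 CCAAT boxes and 1 TATA box, the last ending 26 bases before the start. The CDKN2B window held none of these and instead had 2 GC boxes, 1 on each strand, and 1 core CRE sequence, so the promoters shared no motif among those searched. Neither window held the AP-1 site TGANTCA or the p53 decamer. Among 35116 promoter windows of the same length in that table, 6.34% held the E-box, 32.0% the CCAAT box, 10.7% the TATA box, 42.6% the GC box, 21.2% the core CRE sequence, 6.57% the AP-1 site and 5.57% the p53 decamer. No motif overlapped another in the windows shown. G and C made up 63.2% of the GADD45B window and 66.4% of the CDKN2B window, against a median of 58% over the table, and CG pairs numbered 21 and 18, against a median of 11. A match is a description of these letters only.

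The listed entries amounted to 0.363 to 0.389% of all reads in the RUNX1-IT1 ASO libraries and 1.02 to 1.11% in the control ASO libraries. Group means were 2-fold or more apart for every entry except 1, at 1.99-fold, so the entries appear to have been selected by how much they differed in these 6 libraries. Totals read from the CPM step of 1 read were 17100000 to 18700000 reads in RUNX1-IT1 ASO libraries and 17300000 to 21200000 in control ASO libraries. The level of RUNX1-IT1 was not analysed here, so the target could not be used to check the labels. Of 17 ovarian tumour and epithelial markers, 2 were in the tables used here (PAX8 and ESR1), and they summed to 3.12 to 4.33 CPM in RUNX1-IT1 ASO libraries and 8.77 to 10.7 CPM in control ASO libraries. Of 12 immune cell markers, 2 (CD163 and ITGAM) were there, summing to 1.60 to 1.88 CPM in RUNX1-IT1 ASO libraries and 11.1 to 11.9 CPM in control ASO libraries, and their part in the results was not tested. ITGAM stood at 0.214, 0.108 and 0.059 CPM in the 3 RUNX1-IT1 ASO libraries and was too low for the test. Its lowest values lie below the 0.141 to 0.176 CPM that 3 reads amount to. In bulk RNA, fewer cells of a type and less RNA per cell cannot be told apart.

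GADD45A, GADD45B and CDKN2B were each lower under the RUNX1-IT1 ASO, at 29.3%, 25.2% and 23.4% of their control ASO means. GADD45A, the stress-induced member that p53 activates, stood at 110, 134 and 125 CPM in the 3 RUNX1-IT1 ASO libraries and at 417, 395 and 449 CPM in the 3 control ASO libraries. The highest RUNX1-IT1 ASO library lay far below the lowest control ASO library, and 97.1% of all tested genes were likewise lower without overlap. The means were 123 ± 12.0 CPM in RUNX1-IT1 ASO libraries and 420 ± 27.2 CPM in control ASO libraries (SD, n = 3 each), 3.41-fold lower. On the log2(CPM + 1) scale, on which low genes show too small a change, GADD45A fell by 1.76 ± 0.08 (SE, limma with Benjamini-Hochberg adjustment, adjusted p = 8.12e-10).

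GADD45B, the family member linked to NF-kB and TGF-beta, stood at 48.9, 59.5 and 63.1 CPM in the 3 RUNX1-IT1 ASO libraries and at 228, 212 and 242 CPM in the 3 control ASO libraries. Again no library of one group reached the range of the other. The means were 57.2 ± 7.39 CPM in RUNX1-IT1 ASO libraries and 227 ± 15.3 CPM in control ASO libraries, 3.98-fold lower. GADD45B fell by 1.98 ± 0.10 on the log2 scale (limma, adjusted p = 9.72e-10).

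CDKN2B, the CDK4 and CDK6 inhibitor, stood at 13.4, 14.6 and 14.4 CPM in the 3 RUNX1-IT1 ASO libraries and at 63.7, 55.2 and 62.7 CPM in the 3 control ASO libraries. The RUNX1-IT1 ASO libraries lay close together and well under every control ASO library. The means were 14.2 ± 0.641 CPM in RUNX1-IT1 ASO libraries and 60.5 ± 4.62 CPM in control ASO libraries, 4.28-fold lower. CDKN2B fell by 2.02 ± 0.09 on the log2 scale (limma, adjusted p = 5.29e-10).

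**Figure D1:**
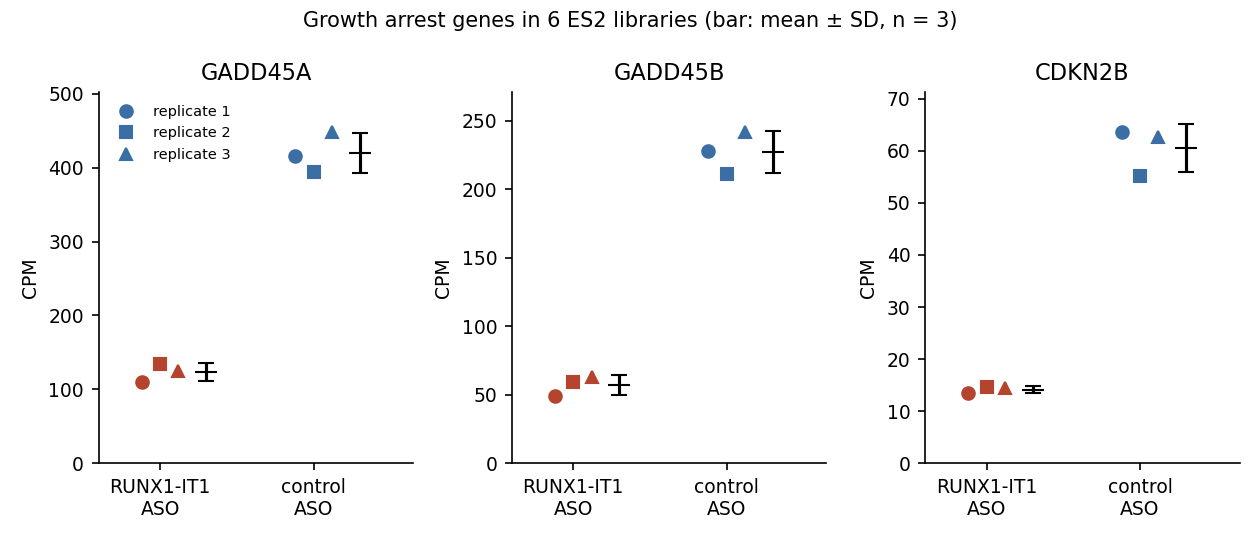
CPM of GADD45A, GADD45B and CDKN2B in each library (vertical axes, linear and starting at 0), with RUNX1-IT1 ASO libraries in red on the left and control ASO libraries in blue on the right; marker shapes give the replicate number and black bars the mean ± SD of 3 libraries. For each gene all 3 RUNX1-IT1 ASO libraries lie below all 3 control ASO libraries, with means of 123 against 420, 57.2 against 227 and 14.2 against 60.5 CPM. The same holds for 97.1% of the 489 tested genes.

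All 3 genes passed the test as lower, and so did 97.5% of the 489 genes tested (477 genes), with 2.04% (10 genes) higher. The share of tested genes with every RUNX1-IT1 ASO library below every control ASO library was 97.1%. Being lower is therefore shared by nearly all genes in these tables and is not a result particular to the growth arrest genes, and the p-values are not independent evidence where the entries appear to be selected on the same samples. What differed between genes was the size of the fall. The median log2 change over the 489 tested genes was -1.11, with a 25th percentile of -1.43 and a 10th percentile of -1.78. CDKN2B, GADD45B and GADD45A ranked 31, 33 and 52 from the most negative of the 489 on this scale. By fold of the means, which low genes lead, they ranked 127, 141 and 188, and the median over the 489 was 2.97-fold lower. Among the 42 tested genes with a control ASO mean of at least 50 CPM, a set that holds all 3, the median was -1.27, the 25th percentile -1.76 and the 10th percentile -2.24.

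The 3 genes together took 173, 208 and 202 CPM in the 3 RUNX1-IT1 ASO libraries and 708, 661 and 754 CPM in the 3 control ASO libraries. Their sum was 3.64-fold lower, and the sum of all listed entries was 2.83-fold lower. As a share of the listed CPM in the same library, a quantity that does not depend on library scaling, they made up 5.14 ± 0.357% in RUNX1-IT1 ASO libraries and 6.62 ± 0.163% in control ASO libraries (SD, n = 3 each). GADD45A held 3.04 to 3.52% of the listed CPM in RUNX1-IT1 ASO libraries and 3.86 to 4.05% in control ASO libraries. After rescaling every library to the same listed total, the changes were -0.27 ± 0.06 for GADD45A (limma, adjusted p = 0.00388), -0.49 ± 0.07 for GADD45B (adjusted p = 0.000305) and -0.58 ± 0.07 for CDKN2B (adjusted p = 9.87e-05). The rescaling takes out the fall shared by the listed entries, so a gene below 0 fell by more than their total did. On that scale 24.1% of tested genes were called lower and 8.79% higher, with a median of -0.06.

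**Figure D2:**
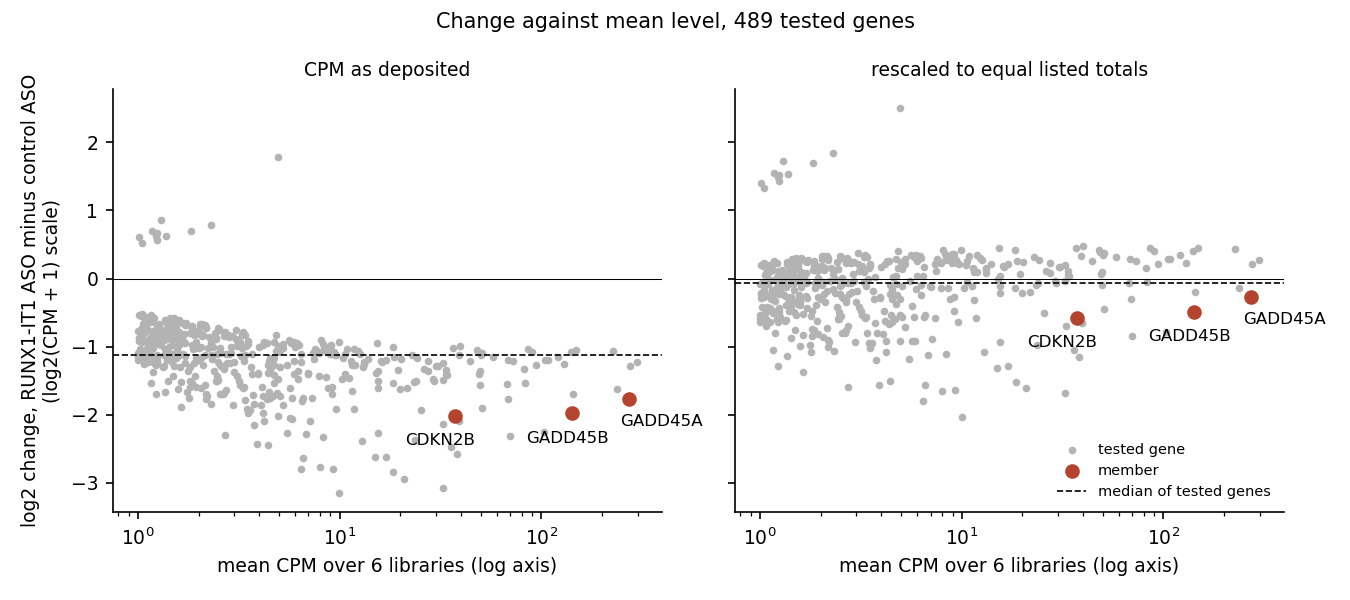
Log2 change on the log2(CPM + 1) scale (vertical axis, RUNX1-IT1 ASO minus control ASO) against the mean CPM over 6 libraries (horizontal log axis) for the 489 tested genes, as deposited (left) and rescaled to equal listed totals (right); red points are the 3 growth arrest genes and the dashed line is the median of tested genes. The 3 genes lie below the median in both panels, at -1.76, -1.98 and -2.02 on the left and at -0.27, -0.49 and -0.58 on the right.

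The 3 genes did not all have the same estimated fall, and a ratio of 2 genes within a library compares them free of library scaling. How often the ratios of other tested genes separate the groups was not counted, so the separations below are descriptions. The GADD45A to GADD45B ratio was 2.26, 2.25 and 1.98 in the 3 RUNX1-IT1 ASO libraries and 1.83, 1.87 and 1.85 in the 3 control ASO libraries. Every RUNX1-IT1 ASO library had the higher ratio, by 0.22 ± 0.06 on the log2 scale (SE). The CDKN2B to GADD45A ratio was 0.122, 0.109 and 0.115 in the 3 RUNX1-IT1 ASO libraries and 0.153, 0.140 and 0.140 in the 3 control ASO libraries. Every RUNX1-IT1 ASO library had the lower ratio, with a difference of -0.32 ± 0.06. The CDKN2B to GADD45B ratio was 0.275, 0.246 and 0.228 in the 3 RUNX1-IT1 ASO libraries and 0.279, 0.261 and 0.259 in the 3 control ASO libraries, and here the groups overlapped, with a difference of -0.10 ± 0.08. In two-sided exact permutation tests over the libraries p was 0.1, 0.1 and 0.3 for these 3 pairs, and 0.15, 0.15 and 0.3 after Benjamini-Hochberg adjustment over the 3 pairs. The smallest p that 3 libraries against 3 allow is 0.1, so no pair could pass a threshold of 0.05.

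**Figure D3:**
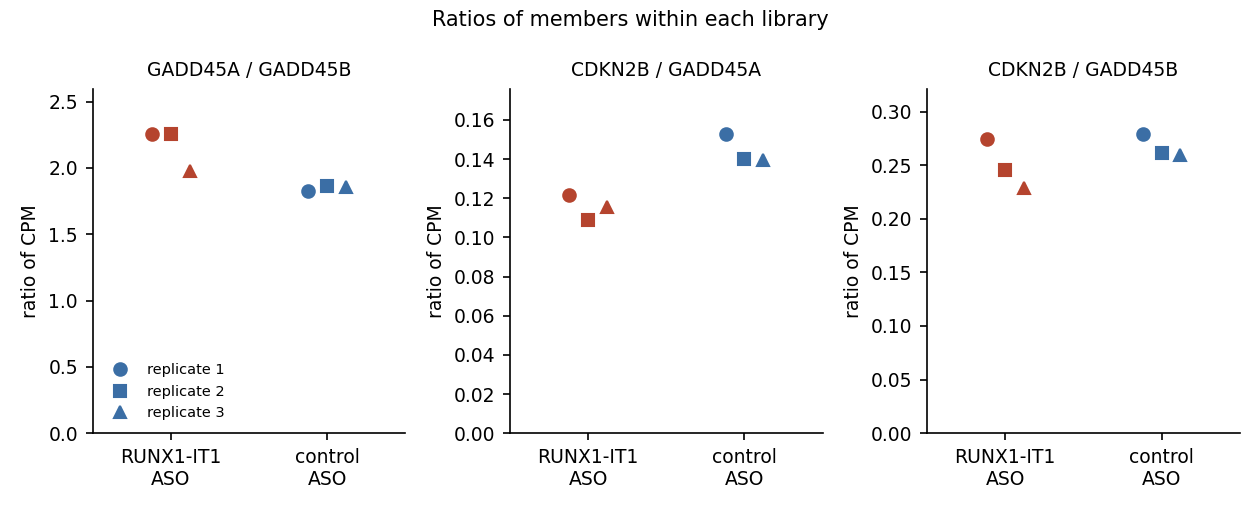
Ratio of CPM of 2 genes within the same library (vertical axes, linear from 0) for the 3 pairs, with RUNX1-IT1 ASO libraries in red on the left and control ASO libraries in blue on the right; marker shapes give the replicate number. The groups are apart for GADD45A to GADD45B and for CDKN2B to GADD45A and overlap for CDKN2B to GADD45B. How often other pairs of tested genes separate was not counted.

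Levels of different genes can be compared only per length. Over the union of annotated exons, 2069 bases for GADD45A, 2138 for GADD45B and 4058 for CDKN2B, the level was 59.5 ± 5.81 CPM per kb for GADD45A in RUNX1-IT1 ASO libraries and 203 ± 13.1 CPM per kb in control ASO libraries. GADD45B stood at 26.7 ± 3.46 CPM per kb in RUNX1-IT1 ASO libraries and 106 ± 7.15 CPM per kb in control ASO libraries. CDKN2B stood at 3.49 ± 0.158 CPM per kb in RUNX1-IT1 ASO libraries and 14.9 ± 1.14 CPM per kb in control ASO libraries. The order GADD45A, GADD45B, CDKN2B held in each of the 6 libraries, with neighbours in that order further apart than their spread. The isoforms in use were not analysed here, and with the longest coding transcript as the length (1496, 1373 and 3911 bases) the same order held, at 82.3, 41.6 and 3.62 CPM per kb in RUNX1-IT1 ASO libraries and 281, 166 and 15.5 CPM per kb in control ASO libraries.

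GADD45A rested on an implied 2063 to 2495 reads in RUNX1-IT1 ASO libraries and 6815 to 9522 in control ASO libraries. For CDKN2B it was 246 to 272 reads in RUNX1-IT1 ASO libraries and 954 to 1331 in control ASO libraries. Read counting alone would give a coefficient of variation of 6.06 to 6.38% for CDKN2B in RUNX1-IT1 ASO libraries, and the replicates varied by 4.53%. For GADD45B in RUNX1-IT1 ASO libraries counting would give 3.01 to 3.31%, and the replicates varied by 12.9%. For GADD45A in the same libraries the figures were 2.00 to 2.20% from counting and 9.76% between replicates. In RUNX1-IT1 ASO libraries the spread between replicates thus exceeded counting error for both GADD45 genes but not for CDKN2B, and in control ASO libraries CDKN2B varied by 7.63% against 2.74 to 3.24% from counting. These read numbers rest on the spacing of low CPM values and cover counting error only.

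Some reads could belong to other genes. CDKN2B lies within CDKN2B-AS1, an antisense non-coding gene on the plus strand at chr9:21994778-22121097, and within the longer annotated gene AL359922.1 on that strand, and reads of an overlap cannot be told apart where the counting did not use strand, which the sources used here do not give. Transcripts of CDKN2B and its neighbour and paralog CDKN2A, which encodes p16INK4a and ARF, share an identical stretch of 80 bases at most, so short reads from it could be split. GADD45A and GADD45B share 15 bases at most. CDKN2B-AS1 and CDKN2A were not analysed here. Within 500 kb, GENCODE release 29 has 22 other genes around GADD45A, 56 around GADD45B and 21 around CDKN2B, and 1 of these was in the tables used here. It was GNG7, a G protein gamma subunit gene 33.0 kb from GADD45B, at 0.107, 0.215 and 0.117 CPM in the 3 RUNX1-IT1 ASO libraries and 0.648, 1.22 and 1.32 CPM in the 3 control ASO libraries, with a mean too low for the test.

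Among the wider family of GADD45 proteins and CDK inhibitors, 4 of 13 genes were in the tables used here, and all 4 fell, where 97.5% of all tested genes did. Their median log2 change was -1.87, against -1.11 over all tested genes, and 3 of the 4 are the genes described above. The fourth was CDKN1A, which encodes p21, the CDK inhibitor that p53 induces. CDKN1A stood at 16.2, 15.8 and 18.0 CPM in the 3 RUNX1-IT1 ASO libraries and 49.8, 42.3 and 53.8 CPM in the 3 control ASO libraries. It was 2.92-fold lower, a fall of 1.49 ± 0.10 on the log2 scale (limma, adjusted p = 2.20e-08). After rescaling to equal totals CDKN1A was no longer called, at -0.04 (adjusted p = 0.729), whereas CDKN2B, GADD45A and GADD45B were still called lower, as were 24.1% of all tested genes. The difference between CDKN1A and the other 3 was not tested. None of 25 GADD45 partners, stress kinases and DNA demethylation genes, none of 19 cyclin D, CDK4/6 and RB genes and none of 30 cell cycle and DNA replication genes were in the tables used here, so these are not analysed.

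Of 47 genes taken as regulators of GADD45 or CDKN2B transcription, 8 were in the tables used here. All 8 fell, as did 97.5% of all tested genes, with a median of -2.32 against -1.11 over all tested genes. With listed totals made equal, 6 of these 8 regulators were still called lower, against 24.1% of all tested genes, EGR1 and JUNB being the exceptions. The list was chosen with earlier results of these data known, and the entries appear to have been selected by how much they differed. These shares and medians are therefore descriptions, and whether regulators fell more than other genes was not tested. ATF3, a stress-induced factor of the CREB family, averaged 6.16 ± 0.829 CPM in RUNX1-IT1 ASO libraries and 58.8 ± 1.49 CPM in control ASO libraries. FOSB and FOS, subunits of the AP-1 factor, were 6.43-fold and 5.75-fold lower. EGR1, a zinc finger factor induced by growth signals, averaged 115 ± 11.2 CPM in RUNX1-IT1 ASO libraries and 358 ± 14.3 CPM in control ASO libraries, 3.10-fold lower, and stood at -0.14 after rescaling. EGR2 was 5.64-fold lower, and ID2, a helix-loop-helix inhibitor induced by TGF-beta family signals, was 10.6-fold lower. JUNB, an AP-1 subunit chosen after its values were seen, was 2.94-fold lower and stood at -0.06 after rescaling.

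Of 50 p53 targets, 9 were in the tables used here, and all 9 fell, near the 97.5% of all tested genes, with a median of -1.39 against -1.11. GADD45A stood second among the 9 by log2 change, after ATF3. These medians are on the log2(CPM + 1) scale, on which low genes show too small a change. By fold of the means the median over all tested genes was 2.97-fold lower. Among the p53 targets named, ATF3 (9.54-fold) and GADD45A (3.41-fold) fell by more than that, and CDKN1A (2.92-fold), PMAIP1, PLK2 and PLK3 by less. Low genes lead that median, and it was 2.43-fold over the 42 tested genes with a control ASO mean of at least 50 CPM. PMAIP1 stood at this second median and PLK2 fell by less, while CDKN1A and PLK3 had control ASO means under 50 CPM. PMAIP1, the pro-apoptotic gene NOXA, averaged 54.9 ± 3.72 CPM in RUNX1-IT1 ASO libraries and 133 ± 12.3 CPM in control ASO libraries, 2.43-fold lower. PLK2 and PLK3, polo-like kinases induced by stress, were 2.09-fold and 2.33-fold lower. After rescaling to equal totals, ATF3 and GADD45A were called lower, while PMAIP1 (0.22), PLK2 (0.43) and PLK3 (0.27) were called higher and the remaining 4 neither, beside 24.1% lower and 8.79% higher among all tested genes. Values above 0 here belong to genes whose fall was milder than the 2.83-fold of the listed sum. The list's median after rescaling was -0.04. For tested genes with a control ASO mean of at least 50 CPM the rescaled median was 0.22, the value of PMAIP1.

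Of 38 antiproliferative and quiescence genes, 13 were in the tables used here and 12 were tested, of which 11 fell and 1 rose, beside 97.5% lower and 2.04% higher among all tested genes, with a median of -1.22 against -1.11. By fold of the means the median over all tested genes was 2.97-fold lower. Among the falling genes named below, KLF10 (3.26-fold), IER5L and ARRDC4 fell by more than that, and PPP1R15A, TXNIP and TSC22D1 by less. Low genes lead that median, and it was 2.43-fold over the 42 tested genes with a control ASO mean of at least 50 CPM. PPP1R15A, TXNIP and TSC22D1 are of that level and fell by less than 2.43-fold too. KLF10, a zinc finger repressor induced by TGF-beta, averaged 67.5 ± 1.28 CPM in RUNX1-IT1 ASO libraries and 220 ± 7.58 CPM in control ASO libraries. IER5L, an immediate early response gene, was 4.69-fold lower. PPP1R15A, also known as GADD34, which despite that name belongs to another protein family, averaged 179 ± 14.0 CPM in RUNX1-IT1 ASO libraries and 416 ± 14.1 CPM in control ASO libraries, 2.33-fold lower. TXNIP, TSC22D1 and ARRDC4 were 2.31-fold, 2.12-fold and 3.31-fold lower. The gene that rose, chosen after its values were seen, was RGCC, a regulator of CDK1 activity. RGCC stood at 1.34, 1.83 and 2.05 CPM in the 3 RUNX1-IT1 ASO libraries and 0.897, 0.347 and 0.990 CPM in the 3 control ASO libraries, 2.33-fold higher, with a change of 0.66 ± 0.17 (limma, adjusted p = 0.00169). Its mean of 1.24 CPM was near the 1 CPM limit of the test, and its control ASO libraries varied by 46.7% (coefficient of variation). After rescaling to equal totals, KLF10 and IER5L were called lower, 4 genes including RGCC higher and 6 neither, beside 24.1% lower and 8.79% higher among all tested genes, and the median was 0.20 against -0.06. For tested genes with a control ASO mean of at least 50 CPM the rescaled median was 0.22.

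**Figure D4:**
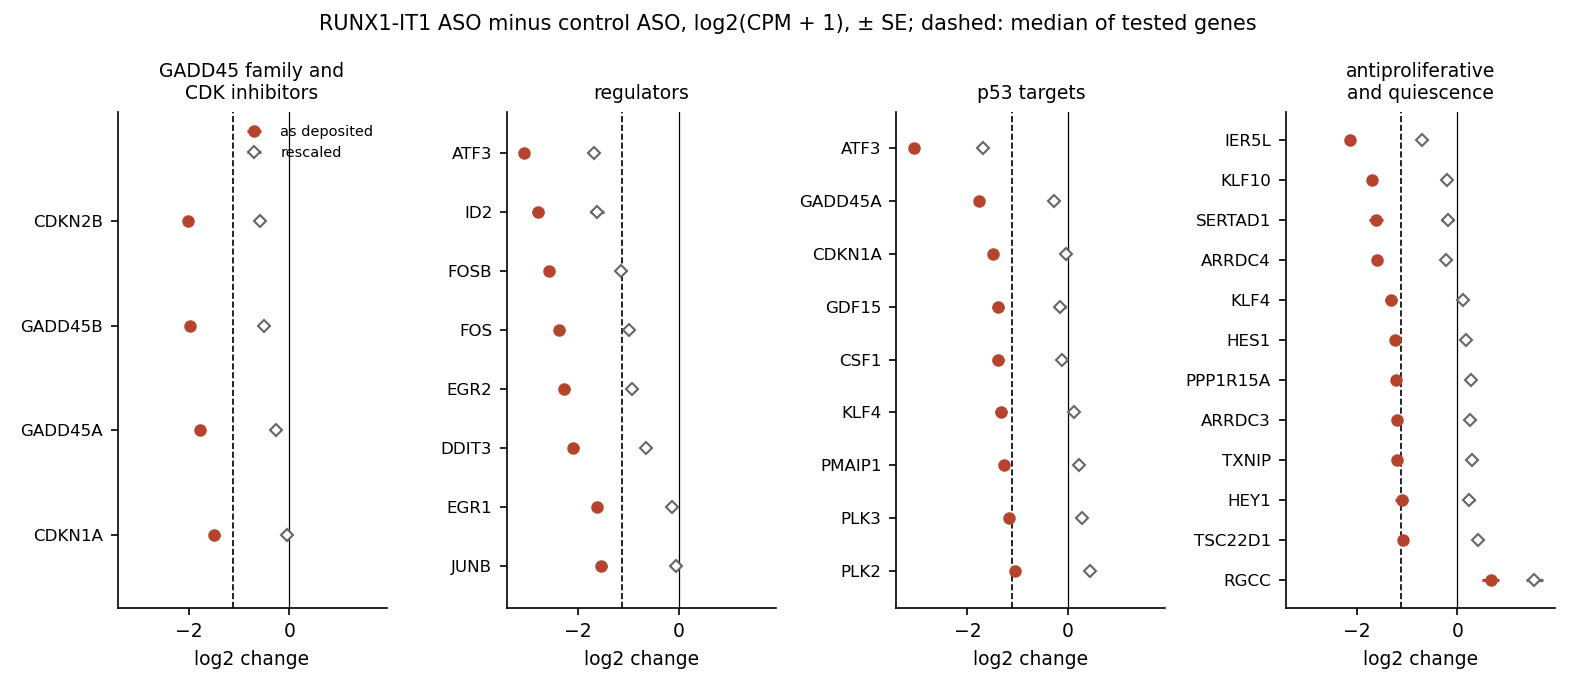
Log2 change on the log2(CPM + 1) scale (horizontal axes, RUNX1-IT1 ASO minus control ASO) of the tested genes on 4 lists, as deposited (red circles) and rescaled to equal listed totals (open diamonds), with bars for the limma SE and a dashed line at the median of all tested genes as deposited, -1.11. All red circles but that of RGCC lie left of 0, and the diamonds of PLK2, PLK3 and PMAIP1 lie right of it while those of GADD45A, GADD45B and CDKN2B lie left.

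Profiles across the 6 libraries were compared by the root mean square difference of log2(CPM + 1), each profile centred on its control ASO mean, over the 165 tested genes that averaged 5 CPM or more. By this measure CDKN2B and GADD45B were near each other, at 0.09, GADD45B being the nearest gene to CDKN2B and CDKN2B the third nearest to GADD45B. GADD45A lay further from both, at 0.16 from GADD45B and 0.19 from CDKN2B. The genes nearest to GADD45A were EGR3, a zinc finger factor of the EGR family, at 0.09, SNORD3D, a small nucleolar RNA gene of the U3 type, at 0.10, and KLF10 at 0.11. EGR3 was 5.13-fold lower and KLF10 3.26-fold lower, so the likeness to EGR3, at 1.71 ± 0.302 CPM in RUNX1-IT1 ASO libraries and 8.78 ± 0.308 CPM in control ASO libraries, is one of the log2(CPM + 1) scale and not of fold. VASN, which encodes a TGF-beta-binding membrane protein, was nearest to GADD45B, at 0.06, followed by DDIT3, a stress factor also known as CHOP and GADD153, at 0.09. DDIT3 was also second nearest to CDKN2B, at 0.11, before CD163, a macrophage scavenger receptor gene, at 0.11. DDIT3 averaged 14.3 ± 2.10 CPM in RUNX1-IT1 ASO libraries and 64.2 ± 6.31 CPM in control ASO libraries, 4.47-fold lower, close to the 4.28-fold of CDKN2B. CD163 averaged 1.59 ± 0.215 CPM in RUNX1-IT1 ASO libraries and 9.71 ± 0.464 CPM in control ASO libraries, 6.12-fold lower. Its likeness to CDKN2B is thus also one of the log2(CPM + 1) scale and not of fold. VASN averaged 3.44 CPM in RUNX1-IT1 ASO libraries and was 4.56-fold lower, against 3.98-fold for GADD45B. These distances describe 6 libraries that differ mainly by group.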

How the data were processed

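Expression was measured in 6 ES2 libraries, 3 per group. The submitters' processing notes name GRCh38, FastQC 0.11.9 and fastp 0.22.0; aligner, counter, annotation, strand setting and gene filter are not given in the sources used here. Deposited by the authors were CPM values, the unit being read from their sizes. Every value under 300 steps was within 0.1 step of a multiple of the library's step, 0.0471 to 0.0586 CPM per read. The smallest control ASO values stood at 2 to 5 steps, so read counts were not treated as known and no count test was run. A floor of 3 reads is 0.141 to 0.176 CPM.

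With limma 3.58.1 (R 4.3.3) and a mean-variance trend, log2(CPM + 1) was modelled on group alone over the 489 genes with a symbol and a mean of 1 CPM or more; 282 others were too low, and all 3 growth arrest genes passed. Calls are at a Benjamini-Hochberg adjusted p under 0.05. The same fit was also run on simulated data, after the fits to the real values. Exact permutation tests of ratios used scipy 1.17.1. Replicate libraries differed beyond sampling noise (chi-square of implied reads per degree of freedom 1.95 to 2.70).

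The members and the 12 gene lists were chosen with earlier results of these data known. Named are the members, up to 6 genes per list ranked by adjusted p, the 3 nearest profiles per member and entries within 500 kb; any others were picked with their values in view, as the text says. No fibroblast and mesothelial (12 genes), endothelial (7) or mitochondrially encoded and housekeeping (17) gene was in the tables used here. Alternatives were another pseudocount, other filters, unnamed entries, no trend, rescaling to equal listed totals, a replicate block and leaving out each library.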

Additional observations from a re-analysis of the deposited data

How the results depend on the processing

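GADD45A, GADD45B and CDKN2B were called lower under all 13 alternatives. Nearly all tested genes were called lower too under most of these, 477 to 478 of 489 with 1 library left out. After rescaling to equal listed totals the share was 24.1% (118 genes). Their log2 changes ran from -1.83 to -0.27, -2.05 to -0.49 and -2.09 to -0.58, the smallest falls being those after rescaling to equal listed totals, where values are relative to genes that nearly all fell. Leaving out 1 library at a time gave -1.83 to -1.69, -2.05 to -1.87 and -2.08 to -1.98. The ratio changes kept their direction under all 8 alternatives each. Leaving out 1 library gave 0.19 to 0.29 for GADD45A to GADD45B, -0.36 to -0.28 for CDKN2B to GADD45A and -0.17 to -0.04 for CDKN2B to GADD45B.

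Genes called lower over the tables numbered 750 with no filter, 165 with a mean of at least 5 CPM and 118 after rescaling, against 477. Genes called higher numbered 19 with no filter, 0 with a mean of at least 5 CPM (all 165 genes tested there were called lower), 20 with unnamed entries included and 43 after rescaling, against 10. Filters and unnamed entries change how many entries are tested. Leaving out 1 library gave 477 to 478 lower and 10 to 11 higher.

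Libraries of equal replicate number did not deviate together (correlations of -0.24, -0.10 and -0.02 over 489 genes), so the numbers were not taken as pairs. With a replicate block, 478 genes were called lower, the 3 members were still called at -1.76, -1.98 and -2.02, and no ratio change could pass, since 3 pairs allow no p under 0.25. Depth limits CDKN2B most, at 246 to 272 implied reads in RUNX1-IT1 ASO libraries.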
